A study of Mus musculus with 6 samples.

Results

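The artificial tetraploid clone of mouse mesenchymal stromal cells was set against the pair of diploid cultures whose expression values lay closest to it. The clone is tetraploid III of the series, described in the labels as made tetraploid artificially, and the diploid cultures are diploid I, a clone, and diploid II, a primary culture. The pair was chosen by the measured values, so every difference below is a description and no test was made: 1 array faces 2, and an exact permutation of 1 sample against 2 cannot give a p under 0.333. Of 22311 named genes, 9134 had a log2 value of 6 or more on at least 1 of these 3 arrays and are described here, and the other 13177 lay under that minimum on all 3. Of the 9134 genes, 8065 reached 6 on all 3 arrays, 156 on the clone alone, 196 on both diploid arrays and not on the clone, and 717 in other combinations.

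All cultures of the series came from mouse bone marrow, were grown in the same kind of stem cell medium and had their ploidy assigned by DNA content and spectral karyotyping. The remaining arrays were tetraploid I and diploid III, both primary, and tetraploid II, an established line, with 1 array per sample. The labels give no age, strain or sex, do not say how the clone was made tetraploid, and do not say whether it descends from one of the diploid cultures. A clone represents 1 founder cell, so what is particular to the clone and what came with its tetraploid state cannot be told apart. Array medians were 4.58 in the clone, 4.59 in diploid I and 4.63 in diploid II on the log2 scale, and the interquartile ranges were 3.62, 3.64 and 3.64. Values of Xist, the RNA that silences an X chromosome in female cells, were 10.95 in the clone, 10.27 in diploid I and 10.75 in diploid II.

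Mesenchymal stromal cells are adherent marrow cells with the capacity to give rise to bone, cartilage and fat, and they make the matrix and signals of the blood stem cell niche. Tetraploid cells carry a doubled chromosome set, which can arise when a cell copies its DNA and does not divide, or when cells fuse. H19 is an imprinted long non-coding RNA transcribed from the maternal chromosome, next to the growth factor gene Igf2, and it is also the precursor of the microRNA miR-675. The mature products of miR-675 are shown because H19 had the largest gap among the genes lower in the clone. Capitals mark the seed, bases 2 to 8. Both come from RefSeq on GRCm38.p6, at chr7:142577112-142577133 for the 5p arm and chr7:142577078-142577099 for the 3p arm, on the minus strand. The values below are those of H19 and not of the microRNA.
mmu-miR-675-5p: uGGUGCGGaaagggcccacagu
mmu-miR-675-3p: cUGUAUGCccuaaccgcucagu

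The 3 arrays were close to one another over the 9134 genes. The clone differed by 2-fold or more from diploid I in 678 genes (7.42%), 313 of them higher in the clone and 365 lower. Against diploid II the count was 477 genes (5.22%), 224 higher and 253 lower. The diploid cultures differed from each other in 614 genes (6.72%), more than separated the clone from diploid II. The clone lay farther from the other tetraploid samples, with 1135 genes (12.4%) 2-fold apart from tetraploid I and 1339 (14.7%) from tetraploid II, and farther still from diploid III, with 2139 (23.4%). The median size of the log2 difference was 0.26 between the clone and diploid I, 0.21 between the clone and diploid II and 0.27 between the diploid arrays. Because diploid I and II were selected for their nearness to the clone, the greater distance of diploid III is what the choice itself gives. The places of the tetraploid samples, and of the distance between diploid I and II, do not follow from that choice alone.

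A gene was counted as different when the clone lay at least 1 on the log2 scale (2-fold) beyond the nearer of the diploid values. By that rule 113 genes (1.24%) were higher in the clone and 102 (1.12%) lower. At a 4-fold distance 32 genes (0.35%) were higher and 18 (0.197%) lower. In 194 of the 215 genes past the 2-fold rule the gap to the nearer diploid array was larger than the distance between the diploid arrays. The median gap was 1.60 for the higher genes and -1.29 for the lower genes. The median log2 difference over all 9134 genes, clone minus the mean of diploid I and II, was -0.03. Of the higher genes 40 reached 6 on all 3 arrays and 73 reached it on the clone and not on both diploid arrays, while of the lower genes 47 reached 6 on all 3 arrays and 55 lay under it in the clone, so the size of many differences is set in part by values near the lower end of the scale. A gene that reached 6 on the clone alone had to lie above both diploid arrays. One that reached it on both diploid arrays and not on the clone had to lie below both. This holds for the genes of every list below. Counts of list genes above both, below both or between the diploid arrays are of any size. The matching shares of all 9134 genes are not given here, so these counts have no background beside them. The shares of 1.24% and 1.12% belong to the 2-fold rule, and the 2-fold counts of every list are to be read beside them. Just inside the minimum of 6 were Bud13 and Pick1, with highest values of 6.001 and 6.001, and just outside it was Tnip1 at 5.999. Just inside the 2-fold rule were Plau and Rraga, with gaps of -1.001 and -1.002 to the nearer diploid array, and just outside it were Msrb3 at 0.98 and Sort1 at -0.99.

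**Figure D1:**
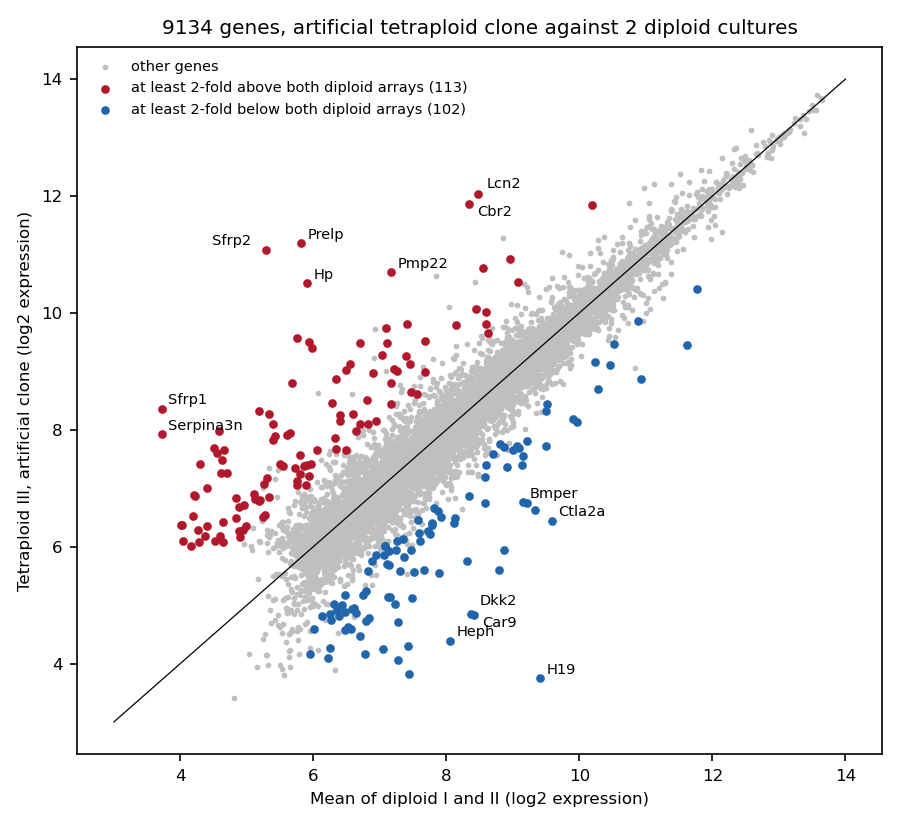
Log2 expression of 9134 genes in the artificial tetraploid clone (vertical) against the mean of diploid I and II (horizontal), with the line of equality and 1 point per gene. The 113 genes at least 2-fold above both diploid arrays are red, the 102 at least 2-fold below both are blue, and H19 is the blue point farthest below the line.

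H19 had the largest gap among the lower genes. It stood at 3.75 in the clone, against 8.36 in diploid I and 10.46 in diploid II, a gap of -4.60 or 24.3-fold to the nearer diploid array. The clone's value lay under its array median, so the size of the ratio is uncertain. The other H19 probe set gave 4.47 in the clone, against 7.07 and 8.97 in diploid I and II, a gap of -2.61. On the remaining arrays, H19 was at 3.92 in tetraploid I and 3.97 in tetraploid II, against 8.33 in diploid III. Igf2, its imprinted neighbour, was at 6.30 in the clone, between diploid I at 4.63 and diploid II at 6.75. Of 19 imprinted genes at the minimum, H19 was the 1 gene that differed by the 2-fold rule, and the median difference of the list was -0.13. Among 18 genes of DNA methylation and chromatin regulators that maintain imprints, 0 were 2-fold higher or lower, and their median difference was -0.15.

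Secreted regulators of Wnt signalling, a pathway that directs stromal cells toward bone, were among the genes most different in the clone. Sfrp2, which encodes a secreted protein that binds Wnt ligands, was at 11.08 in the clone, against 4.68 in diploid I and 5.89 in diploid II, a gap of 5.19 or 36.5-fold. Sfrp1, its relative, was at 8.36 in the clone, against 3.78 and 3.67 in diploid I and II, a gap of 4.58. The diploid values of Sfrp1 lay under the array medians, and the diploid arrays differed from each other by only 0.10. Rspo2, a secreted enhancer of Wnt signalling that acts through Lgr receptors, was at 9.48 in the clone, against 6.76 and 7.46 in diploid I and II. Rspo3, of the same family and outside the naming rule, was at 8.28 in the clone, against 6.62 and 6.58 in diploid I and II. In the opposite direction, the Wnt antagonist gene Dkk2 was at 4.85 in the clone, against 9.08 and 7.65 in diploid I and II, a gap of -2.80. Of 18 Wnt pathway genes at the minimum, 4 were 2-fold higher and 1 lower, against 1.24% and 1.12% of all genes. Sfrp1 and Sfrp2 reached the minimum in the clone alone and so had to be higher there. Dkk2 reached it in the diploid arrays alone and so had to be lower in the clone. The list as a whole had no settled direction, with a median of 0.63 against diploid I and -0.04 against diploid II. Over all 54 measured genes of the list the median difference was -0.003. On the remaining arrays both antagonist genes lay above diploid I and II, with Sfrp1 at 10.14 and 11.12 in tetraploid I and II and 9.87 in diploid III, and Sfrp2 at 6.79 and 12.79 in tetraploid I and II and 9.68 in diploid III. Rspo2 was at 10.26 and 11.69 in tetraploid I and II, against 4.12 in diploid III.

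Regulators of BMP and TGF-beta signalling, which govern bone formation and matrix production, went both ways. Bmper, which encodes a secreted protein that binds BMPs, was at 6.76 in the clone, against 9.04 in diploid I and 9.28 in diploid II, a gap of -2.28, and Grem1, a BMP antagonist gene, was at 4.58 in the clone, against 7.12 and 5.83 in diploid I and II. Fstl3 and Fst encode follistatins, which trap activin. Fstl3 was at 8.46 in the clone, against 6.57 and 5.99 in diploid I and II, and Fst at 7.25 in the clone, against 5.97 and 5.63 in diploid I and II. These were the 4 genes of the list past the 2-fold rule, 2 of 31 higher and 2 lower, against 1.24% and 1.12% of all genes. Fst reached the minimum in the clone alone and so had to be higher there. In the whole list 14 genes lay above both diploid arrays, 11 below both and 6 between them, with a median difference of 0.20, and of -0.01 over all 52 measured genes. Among 34 genes of growth factors and their receptors 2 were 2-fold higher and 2 lower, against 1.24% and 1.12% of all genes. Their median was 0.04. Vegfd, a growth factor for lymphatic vessels, was at 9.27 in the clone, against 7.76 and 7.03 in diploid I and II, and Met, the receptor gene for hepatocyte growth factor, at 7.37 in the clone, against 9.30 and 8.51 in diploid I and II. The others past the rule were F3, the tissue factor gene that starts coagulation, with a gap of 1.10, and the fibroblast growth factor gene Fgf2, with -1.05.

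Collagen genes at the minimum were higher in the clone more often than lower. Of 18 collagen genes at the minimum, 14 lay above both diploid arrays, 2 below both and 2 between them. The collagen genes Col12a1, Col6a3, Col3a1, Col18a1 and Col5a1 (5 of 18) were 2-fold higher and 0 lower, against 1.24% and 1.12% of all genes, and the median difference of the 18 genes was 0.78. Over all 40 measured collagen genes, most of them under the minimum, it was 0.13. Col3a1, which encodes the fibrillar collagen III, was at 11.84 in the clone, against 10.62 in diploid I and 9.77 in diploid II. Col6a3, which encodes a chain of the microfibrillar collagen VI, was at 10.06 in the clone, against 8.72 and 8.18 in diploid I and II. Col12a1, which encodes a collagen that associates with fibrils, was at 10.93 in the clone, against 8.33 and 9.58 in diploid I and II. The list median was 0.47 against diploid I and 1.12 against diploid II. The list's mean level, over genes of different probe sets, was 9.26 in the clone, 8.69 in diploid I and 8.25 in diploid II, and on the remaining arrays 8.94 and 9.12 in tetraploid I and II and 8.64 in diploid III.

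Of 46 proteoglycan, elastic fibre and matrix glycoprotein genes, 23 lay above both diploid arrays, 10 below both and 13 between them, and 6 were 2-fold higher and 1 lower, against 1.24% and 1.12% of all genes. The higher genes Abi3bp, Aspn, Srpx2 and Mfap5 reached the minimum in the clone alone and so had to be higher there. The median difference was 0.47 over the 46 genes and 0.09 over all 73 measured genes of the list. Prelp, a leucine-rich proteoglycan that anchors basement membranes, was at 11.19 in the clone, against 4.66 in diploid I and 6.98 in diploid II, a gap of 4.21. Abi3bp, which encodes a matrix-binding protein, was at 7.41 in the clone, against 4.35 and 4.24 in diploid I and II. Aspn, which encodes asporin, was at 6.86 in the clone, against 4.68 and 3.76 in diploid I and II, and Fbln1, which encodes the basement membrane and elastic fibre protein fibulin 1, at 9.40 in the clone, against 4.67 and 7.30 in diploid I and II. Sned1, a matrix glycoprotein gene outside the list, was at 7.99 in the clone, against 4.19 and 4.97 in diploid I and II. The other genes of the list past the rule, outside the naming rule, were Srpx2 (gap 1.98) and Mfap5 (1.75), both higher, and the collagen cross-linking oxidase gene Loxl3 (-1.02). In Prelp, Abi3bp, Aspn, Fbln1 and Sned1 the diploid arrays lay at or below 7.30. These genes were named for the size of their gaps, so clone values well above both diploid arrays follow from the naming rule. Within matrix proteases and their inhibitors 2 of 35 genes were 2-fold higher and 2 lower, against 1.24% and 1.12% of all genes, with a median of 0.11. Adamts2, which encodes the enzyme that trims the amino end of fibrillar procollagens, was at 8.51 in the clone, against 7.05 and 6.57 in diploid I and II. Adam12, a membrane metalloprotease gene, was at 5.11 in the clone, against 7.64 and 7.32 in diploid I and II, a gap of -2.20. Adam23, which encodes an integrin-binding member of that family, was at 9.74 in the clone, against 7.36 and 6.81 in diploid I and II. The other gene lower by the rule was Plau, the urokinase gene.

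Of 19 integrin and laminin genes 11 lay above both diploid arrays, 4 below both and 4 between them, and 4 were 2-fold higher and 2 lower, against 1.24% and 1.12% of all genes. Itga1 and Lama5 reached the minimum in the clone alone and so had to be higher there. Itga7 reached it in the diploid arrays alone and so had to be lower in the clone. The median difference was 0.44, and 0.03 over all 33 measured genes of the list. Itga1 and Itga11, which encode collagen-binding integrin chains, were both higher: Itga1 was at 8.27 in the clone, against 5.17 in diploid I and 5.49 in diploid II, and Itga11 at 9.04 in the clone, against 7.03 and 7.38 in diploid I and II. Lama5, a laminin chain gene, was at 7.95 in the clone, against 5.85 and 5.46 in diploid I and II, whereas Itga7, which encodes a laminin-binding integrin chain, was at 5.57 in the clone, against 7.13 and 7.91 in diploid I and II. The laminin chain genes Lama4 (gap 1.21) and Lama2 (-1.03), outside the naming rule, were the others past the rule. Among 31 cadherin, semaphorin, ephrin and Notch genes 6 lay above both diploid arrays, 12 below both and 13 between them. Their median difference was -0.16, and -0.06 over all 62 measured genes of the list. Of the 31 genes 0 were 2-fold higher and 4 lower, against 1.24% and 1.12% of all genes. These 4 were the protocadherin gene Pcdh9, at 5.02 in the clone, against 7.18 and 7.26 in diploid I and II, the semaphorin gene Sema7a, the ephrin gene Efnb2 and the semaphorin and VEGF co-receptor gene Nrp1. Pcdh9 and Sema7a reached the minimum in the diploid arrays alone and so had to be lower in the clone. Nrp1 was at 7.71 in the clone, against 8.90 and 8.82 in diploid I and II.

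Smooth muscle and myofibroblast genes were higher or between, and none of them lay below both diploid arrays. Of 21 such genes 16 lay above both diploid arrays and 5 between them, and 3 were 2-fold higher and 0 lower, against 1.24% and 1.12% of all genes. The median difference was 0.62, and 0.29 over all 28 measured genes of the list. Cnn1, which encodes the actin-binding protein calponin 1, was at 10.77 in the clone, against 9.03 in diploid I and 8.06 in diploid II. Lmod1, which encodes a smooth muscle actin nucleator, was at 6.43 in the clone, against 4.85 and 4.43 in diploid I and II, and reached the minimum in the clone alone. The beta-tropomyosin gene Tpm2 was at 9.79 in the clone, against 8.73 and 7.57 in diploid I and II. Cnn1 was at 6.10 and 5.54 in tetraploid I and II and 5.75 in diploid III, so its value was high in the clone and both chosen diploid arrays compared with all 3 remaining arrays.

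Chemokine, cytokine and complement genes differed in both directions, with 4 of 30 genes 2-fold higher and 4 lower, against 1.24% and 1.12% of all genes. The median difference was 0.64 against diploid I and 0.13 against diploid II, and 0.04 over all 62 measured genes of the list. The higher genes were Lcn2, Il1r1, Ccl7 and Ccl2 and the lower ones Ptgs2, Ccl5, Il1rl1 and Tnfaip3. Ccl5 and Tnfaip3 reached the minimum in the diploid arrays alone and so had to be lower in the clone. Serpina3n and Hp, acute-phase genes outside that list, were also among the 15 largest positive gaps. Serpina3n, a secreted protease inhibitor gene, was at 7.93 in the clone, against 3.72 in diploid I and 3.73 in diploid II, and between 3.58 and 4.76 on the remaining arrays, so the clone stood alone among the 6 arrays. Serpina3n belongs to a family of near-identical genes, and its probes may read relatives. Lcn2, which encodes the iron-siderophore binding protein lipocalin 2, was at 12.03 in the clone, against 7.57 and 9.39 in diploid I and II, and Hp, the haptoglobin gene, at 10.51 in the clone, against 4.14 and 7.68 in diploid I and II. Lcn2 was even higher in diploid III, at 13.13, and low in tetraploid I and II, at 5.54 and 3.70. Il1r1, the interleukin 1 receptor gene, was at 9.13 in the clone, against 6.46 and 6.65 in diploid I and II, a gap of 2.47. Its co-receptor gene Il1rap, picked after its values were seen, was at 8.87 in the clone, against 6.16 and 6.51 in diploid I and II. Ptgs2, which encodes the inducible prostaglandin synthase, was lower, at 9.46 in the clone, against 12.04 and 11.19 in diploid I and II, although the remaining arrays lay below the clone, at 7.86 and 5.52 in tetraploid I and II and 4.76 in diploid III. The monocyte chemokine gene Ccl7 was at 9.53 in the clone, against 7.99 and 7.35 in diploid I and II. The chemokine gene Ccl5 had a gap of -1.29, the interleukin 33 receptor gene Il1rl1 -1.17 and the NF-kappaB inhibitor gene Tnfaip3 -1.05, all 3 outside the naming rule. Of 19 interferon response genes 0 were higher and 0 lower, with a median of -0.03.

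Heph and Car9 had the largest negative gaps after H19. Heph, which encodes the copper-dependent ferroxidase hephaestin, was at 4.39 in the clone, against 8.10 in diploid I and 8.01 in diploid II, a gap of -3.62. The clone's value lay under its array median, so the size of the difference is uncertain. Slc40a1, which encodes the iron exporter ferroportin, was at 5.60 in the clone, against 9.35 and 8.22 in diploid I and II. Car9, a carbonic anhydrase gene known as a target of the hypoxia response, was at 4.84 in the clone, against 8.44 and 8.38 in diploid I and II, a gap of -3.54. Both diploid arrays carried Heph and Car9 at nearly the same level, with distances of 0.09 and 0.06 between them. The remaining arrays were low for both genes: Heph was at 3.72 and 3.68 in tetraploid I and II and 3.99 in diploid III, and Car9 at 3.48 and 3.48 in tetraploid I and II and 3.94 in diploid III. In the list of 38 glycolysis and hypoxia response genes, Car9 was the 1 gene 2-fold lower and Stc1, a secreted calcium regulator gene, the 1 gene higher, at 7.87 in the clone, against 6.18 and 6.48 in diploid I and II. The list median was 0.06. Trpc6, a calcium channel gene, was at 4.25 in the clone, against 7.17 and 6.93 in diploid I and II, and Slc6a15, a neutral amino acid transporter gene, at 3.83 in the clone, against 8.67 and 6.20 in diploid I and II. Enpp1, which encodes the enzyme that makes the mineralisation inhibitor pyrophosphate, was at 6.63 in the clone, against 8.98 and 9.68 in diploid I and II, and was the 1 osteoblast gene of 12 that was 2-fold lower.

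The remaining genes with the largest gaps had varied roles. Pmp22, which encodes a membrane protein of myelin that is also made by growth-arrested fibroblasts, was at 10.70 in the clone, against 6.79 in diploid I and 7.55 in diploid II, and at 10.63 and 11.86 in tetraploid I and II and 10.02 in diploid III, so the chosen diploid arrays were the low ones of the series. Cbr2, a carbonyl reductase gene, was at 11.86 in the clone, against 8.54 and 8.13 in diploid I and II. Agt, the angiotensinogen gene, was at 7.70 in the clone, against 4.74 and 4.26 in diploid I and II. Mustn1, a small nuclear protein gene of muscle and skeleton, was at 8.32 in the clone, against 5.39 and 4.96 in diploid I and II. Avpr1a, a vasopressin receptor gene, was at 7.60 in the clone, against 4.10 and 5.0 in diploid I and II. Gas6, a ligand of TAM receptors first found in growth-arrested cells, was at 9.58 in the clone, against 4.24 and 7.26 in diploid I and II, the 1 gene of 23 cell cycle inhibitor and growth arrest genes that was 2-fold higher. Lower genes included Ctla2a, a cysteine protease inhibitor gene, at 6.45 in the clone, against 9.26 and 9.90 in diploid I and II, and between 9.27 and 10.77 on the remaining arrays, so the clone had the lowest of the 6 values. Prl2c5, a prolactin family gene, was at 4.06 in the clone, against 7.96 and 6.59 in diploid I and II, and has near-identical copies in the mouse genome that make its value uncertain, as has Ctla2a. AA467197, Fam110c and Brinp3 were also among the 15 genes with the largest negative gaps, at -2.45, -2.35 and -2.29.

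**Figure D2:**
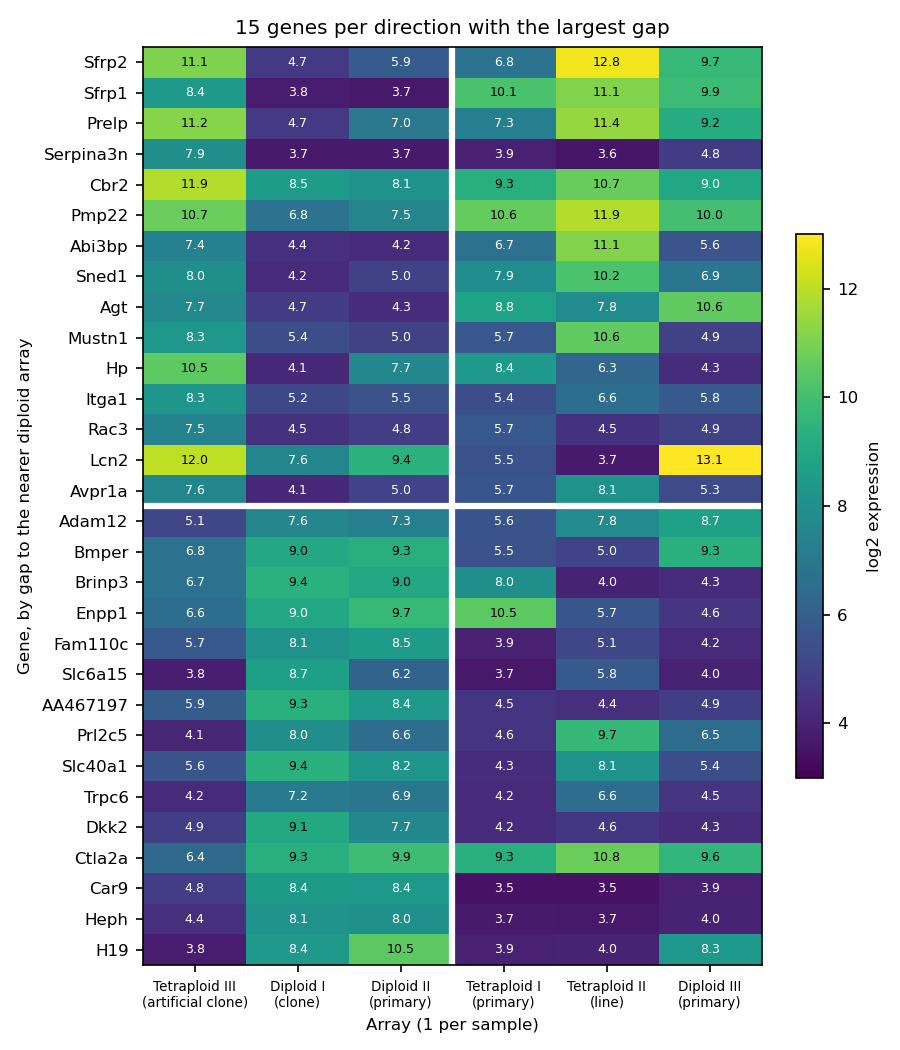
Log2 expression of the 15 genes per direction with the largest gap between the clone and the nearer of diploid I and II, in 6 arrays of 1 sample each, with the values printed in the cells. The first 3 columns are the artificial clone and diploid I and II, and the last 3 are tetraploid I and II and diploid III, where H19 is at 3.9, 4.0 and 8.3.

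Some genes were near the lower end of the scale on one side and clearly measured on the other. Below the clone's array median, with both diploid arrays at 6 or more, were 7 genes: H19, Heph, Msln, Prl2c5, Ptprn, Slc6a15 and Trpc6. Below the medians of both diploid arrays, with the clone at 6 or more, were 14 genes, among them Sfrp1, Serpina3n, Abi3bp, Mfap5, which encodes a microfibril protein, Ptgfr, a prostaglandin receptor gene, and Scara5, a ferritin receptor gene. Msln, Ptprn, Mfap5, Ptgfr and Scara5 were named after their values were seen.

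Nearly all mitosis and spindle genes had their lowest value of the 3 arrays in the clone. Of 58 such genes at the minimum, 57 lay below both diploid arrays, 1 between them and 0 above, and the median difference was -1.0, against -0.03 over all genes. Over all 69 measured genes of the list it was -0.93. Of the 58 genes, 9 were 2-fold lower, against 1.12% of all genes, and 0 were higher. Among the 9, Kif2c, Ect2, Aurkb, Pbk and Kif22 reached the minimum in the diploid arrays alone and so had to be lower. The median was -1.30 against diploid I and -0.61 against diploid II, while diploid I lay above diploid II by 0.71. Tpx2, which targets the Aurora A kinase to the spindle, was at 7.65 in the clone, against 8.93 in diploid I and 9.07 in diploid II. Kif2c, which encodes a kinesin that takes microtubules apart at centromeres, was at 5.58 in the clone, against 7.68 and 6.91 in diploid I and II. Bub1, a spindle checkpoint kinase gene, was at 6.27 in the clone, against 7.92 and 7.53 in diploid I and II, and Ect2, which encodes the exchange factor that starts cleavage furrow ingression, at 5.82 in the clone, against 7.72 and 7.01 in diploid I and II. The other 5 genes, outside the naming rule, were Plk1 (gap -1.09), Aurkb (-1.08), Bub1b (-1.08), Pbk (-1.03) and Kif22 (-1.03), which encode mitotic kinases, a checkpoint protein and a chromosome-binding kinesin. The list's mean level was 6.23 in the clone, 7.53 in diploid I and 6.87 in diploid II, and on the remaining arrays 6.51 and 5.69 in tetraploid I and II and 6.34 in diploid III. The clone's mean thus lay within the range of the remaining arrays, and the 2 chosen diploid arrays had the highest means of the 6. Fewer dividing cells and less mitotic RNA per cell cannot be told apart in such bulk samples.

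Promoters of mitotic genes are known to carry the cell cycle homology region, a short element bound by the complexes that repress these genes outside mitosis. The letters TTTGAA, or TTCAAA on the other strand, were searched in RefSeq promoter windows of 250 bases before to 50 bases after each gene start (GRCm38.p6, first entry per gene). They were present in 34 of 48 mitosis list genes with an entry (70.8%), in 832 of 7091 of all described genes with an entry (11.7%) and in 4893 of 27025 entries of all genes (18.1%). Among the 9 mitosis genes that were 2-fold lower, 6 had an entry and 5 of these held the letters. Each of the 4 stretches below runs from 50 bases before to 50 bases after the gene start, and the capitals mark the letters searched. They lie at chr7:122159385-122159484 (Plk1, plus strand), chr2:118598161-118598260 (Bub1b, plus strand), chr7:127042371-127042470 (Kif22, minus strand) and chr3:27153829-27153928 (Ect2, minus strand). A match is a description of the letters and was not tied to the expression values by any test.
Plk1: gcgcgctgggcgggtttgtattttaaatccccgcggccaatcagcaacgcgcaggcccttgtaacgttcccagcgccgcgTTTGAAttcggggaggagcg
Bub1b: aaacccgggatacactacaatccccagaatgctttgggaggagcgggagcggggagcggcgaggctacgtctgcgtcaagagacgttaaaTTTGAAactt
Kif22: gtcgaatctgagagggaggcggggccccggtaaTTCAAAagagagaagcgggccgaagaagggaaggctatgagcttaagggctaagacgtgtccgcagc
Ect2: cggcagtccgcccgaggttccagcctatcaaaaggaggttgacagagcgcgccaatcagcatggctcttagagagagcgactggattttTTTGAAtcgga

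Other genes of the cell cycle and of genome maintenance differed less. Of 44 DNA replication and nucleotide synthesis genes 0 were 2-fold higher or lower, 23 lay below both diploid arrays, 2 above and 19 between, and the median was -0.23. DNA damage checkpoint and repair genes (27 genes, median -0.01) and p53 target genes (31 genes, median 0.08), the genes through which cells respond to failed division, also had 0 genes past the 2-fold rule in either direction. Centrosome and centriole genes had a median of -0.10 over 15 genes, with 1 lower, Haus6, which encodes a subunit of the augmin complex that branches spindle microtubules. Haus6 was at 7.55 in the clone, against 9.28 and 9.01 in diploid I and II. Hippo pathway and YAP target genes, which respond to cell density and to tetraploidy in other systems, had a median of -0.08 over 24 genes, with 1 higher. That gene was Fat4, an atypical cadherin gene, at 8.26 in the clone, against 6.11 and 6.68 in diploid I and II.

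Metabolic and stress lists had medians between -0.16 and 0.06. Cholesterol synthesis genes had a median of -0.05 over 19 genes and 0 past the 2-fold rule, with 5 above both diploid arrays, 5 below both and 9 between. Oxidative phosphorylation genes had a median of -0.14 over 43 genes, NRF2 target and glutathione genes -0.16 over 31 genes and unfolded protein and stress response genes -0.09 over 30 genes, each with 0 genes higher or lower by the rule. Of the oxidative phosphorylation genes 26 lay below both diploid arrays, 6 above both and 11 between, and of the NRF2 list 10 lay below both, 4 above both and 17 between. In the NRF2 list diploid I lay above diploid II by a median of 0.46, more than separated the clone from their mean. Fatty acid and lipid handling genes had a median of -0.02 over 26 genes, with 1 lower, Plin2, the lipid droplet coat gene, at 10.40 in the clone, against 11.46 and 12.07 in diploid I and II.

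Markers of the stromal cell and of its lineages were largely shared. Of 14 defining stromal markers 13 were at 6 or more in the clone, 13 in diploid I and 12 in diploid II. Thy1, a surface marker of these cells, was at 6.29 in the clone, against 8.56 and 5.51 in diploid I and II, and Lepr, the leptin receptor gene of niche stroma, was under 6 on all 3 arrays. Nt5e, the gene of the stromal surface enzyme CD73, was at 6.21 in the clone, against 7.76 and 7.73 in diploid I and II, and S100a4, a fibroblast gene, at 7.42 in the clone, against 6.18 and 5.75 in diploid I and II. In the wider list of 28 stromal markers 2 were 2-fold higher and 2 lower, against 1.24% and 1.12% of all genes, with a median of 0.05. The 12 osteoblast genes had a median of 0.24 against diploid I and -0.07 against diploid II, and the 13 hematopoietic niche factor genes 0.64 and 0.10. The 9 adipocyte genes had a median difference of 0.58, against 0.06 over all 31 measured genes of that list. Of the 9 genes, 2 were 2-fold higher and 1 lower, against 1.24% and 1.12% of all genes. The higher genes were Lpl and Agt, the second of which reached the minimum in the clone alone. The 1 lower adipocyte gene was Plin2. Lpl, the lipoprotein lipase gene, was at 9.03 in the clone, against 5.54 and 7.45 in diploid I and II. Of 15 Hox and positional homeobox genes 1 was higher, Prrx2, a homeobox gene of limb and craniofacial mesenchyme, at 8.10 in the clone, against 6.34 and 7.07 in diploid I and II. Defining markers of endothelial, myeloid, lymphocyte, erythroid and megakaryocyte, epithelial, skeletal muscle and neural cells were at 6 or more in 0 cases on each of the 3 arrays, with highest values of 4.55 in the clone, 5.04 in diploid I and 4.46 in diploid II. In the wider lists of these cell types, 1 gene each reached the minimum for endothelial, myeloid, erythroid and megakaryocyte, epithelial and neural cells, and 0 for lymphocytes and skeletal muscle. The transcription factor gene Ets1 was at 6.53 in the clone, against 6.96 and 7.21 in diploid I and II, and the neural adhesion gene Ncam1 at 8.98 in the clone, against 9.85 and 9.18 in diploid I and II. Cd14, the endotoxin co-receptor gene of myeloid cells, was at 6.09 in the clone, against 4.81 and 5.54 in diploid I and II, and the transferrin receptor gene Tfrc at 9.35 in the clone, against 8.32 and 8.99 in diploid I and II. The keratin gene Krt19 was the 1 gene of the 5 past the 2-fold rule, at 5.18 in the clone, against 6.95 and 6.54 in diploid I and II.

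**Figure D3:**
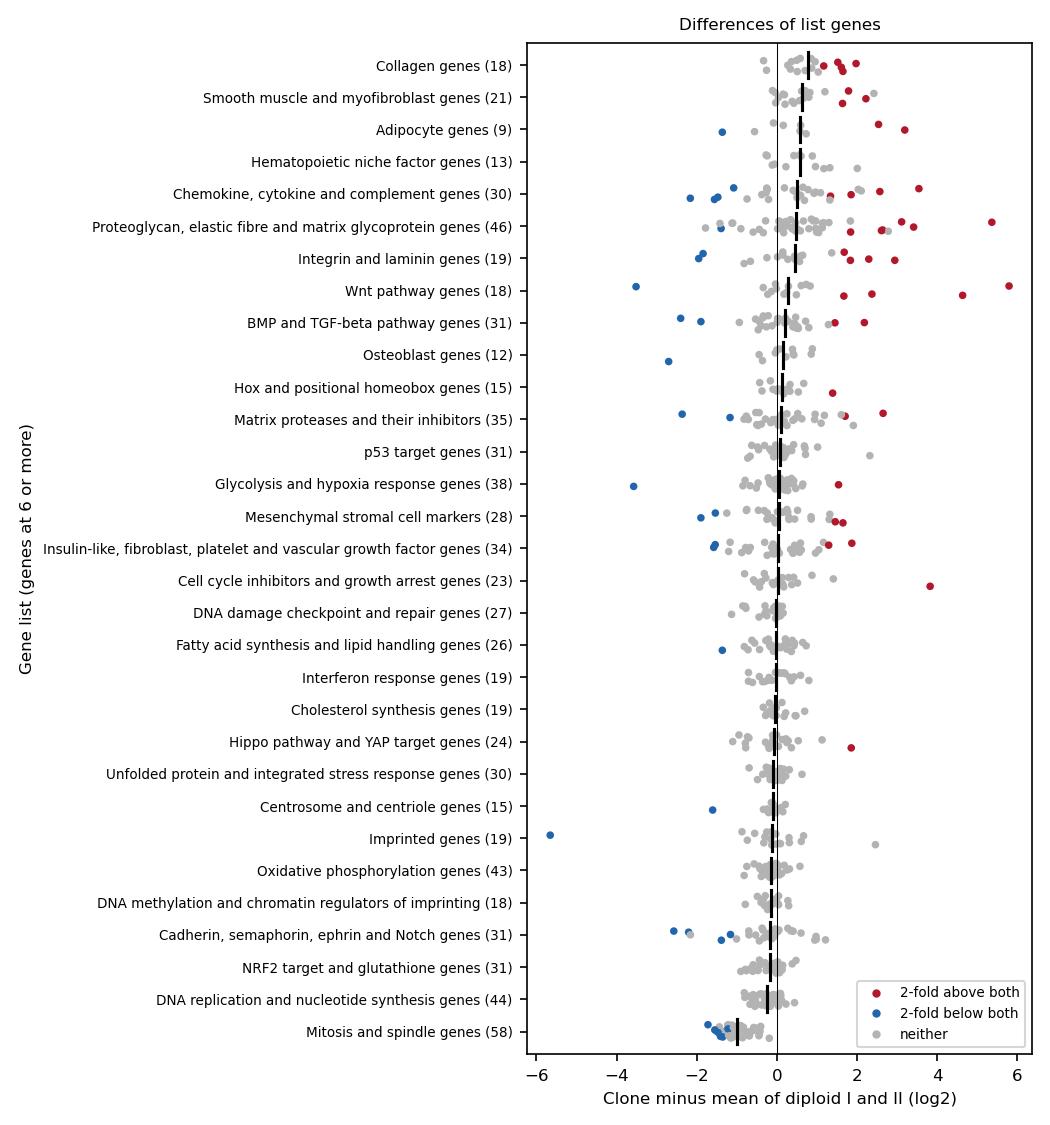
Difference in log2 expression, clone minus the mean of diploid I and II, for the genes of lists with 9 or more genes at the minimum, with 1 point per gene and a black bar at the list median. Red and blue points are at least 2-fold above and below both diploid arrays. Mitosis genes sit lowest, with a median of -1.0, and collagen genes highest at this minimum, at 0.78, though at 0.13 over all measured collagen genes.

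The values of tetraploid I and II and diploid III did not enter the 2-fold rule. They did enter the choice among several probe sets of a gene, and diploid III was left out of the diploid pair on its values. Over all 9134 genes, tetraploid I and II both lay above diploid III, by any amount, in 52.2% and both below it in 24.1%. Diploid III also had a narrower range, with an interquartile range of 3.07 against 3.53 to 3.64 on the other 5 arrays. The part of that range in the imbalance was not tested. The remaining arrays also differed in markers of other cells and of sex. Diploid III had the endothelial genes Cdh5 and Flt1 at 11.03 and 7.32, and tetraploid II the myeloid gene Cd68 at 7.97, the Y-linked gene Ddx3y at 9.80 and Xist at 3.68. The part of these traits in the counts was not tested. Of the 113 genes higher in the clone, 61 (54.0%) had both tetraploid arrays above diploid III and 27 (23.9%) both below, close to the shares of all genes. Of the 102 genes lower in the clone, 38 (37.3%) had both below, against 24.1% of all genes, and 24 (23.5%) both above. Some of the 38, Heph and Car9 among them, lay at the lower end of the scale on all 3 remaining arrays. There small offsets decide the side, and the lower quartile of diploid III was 4.00, against 3.79 to 3.82 on the other 5 arrays. The part of such offsets in the 37.3% was not tested. H19, Col6a3, Rspo2 and Bmper are examples, picked after their values were seen, in which both tetraploid arrays lay on the clone's side of diploid III. Col6a3 was at 10.45 and 10.53 in tetraploid I and II, against 7.46 in diploid III, and Bmper at 5.49 and 5.02 in tetraploid I and II, against 9.34 in diploid III. In Agt, Serpina3n and Lcn2 both tetraploid arrays lay below diploid III, with Agt at 8.80 and 7.83 in tetraploid I and II and 10.57 in diploid III. Dkk2, Car9 and Heph were low on all 3 remaining arrays.

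Differences were also arranged along chromosomes, a pattern looked for after the data had been seen. RefSeq placed 9014 of the genes on 20 chromosomes. On chromosome 6, with 453 genes, the median difference was -0.46 between the clone and diploid I, 0.05 between the clone and diploid II and 0.51 between diploid I and diploid II, and diploid I lay above diploid II in 85.2% of the genes. Among the 3 arrays the chromosome was therefore set apart in diploid I. The remaining arrays did not all lie with the clone: in a run of 15 genes from Kcmf1 to Wdr54 the mean was 7.92 in the clone, 8.84 in diploid I and 8.19 in diploid II, and 8.43, 9.31 and 7.92 in tetraploid I, tetraploid II and diploid III. Chromosome 7, which holds H19, had medians of -0.19 and -0.15 for the clone against diploid I and II, and chromosome 18 had -0.19 and -0.16. Chromosome 1 had the opposite sign, at 0.10 and 0.17. Copy number was not measured on these arrays, and its part in these differences was not tested.

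**Figure D4:**
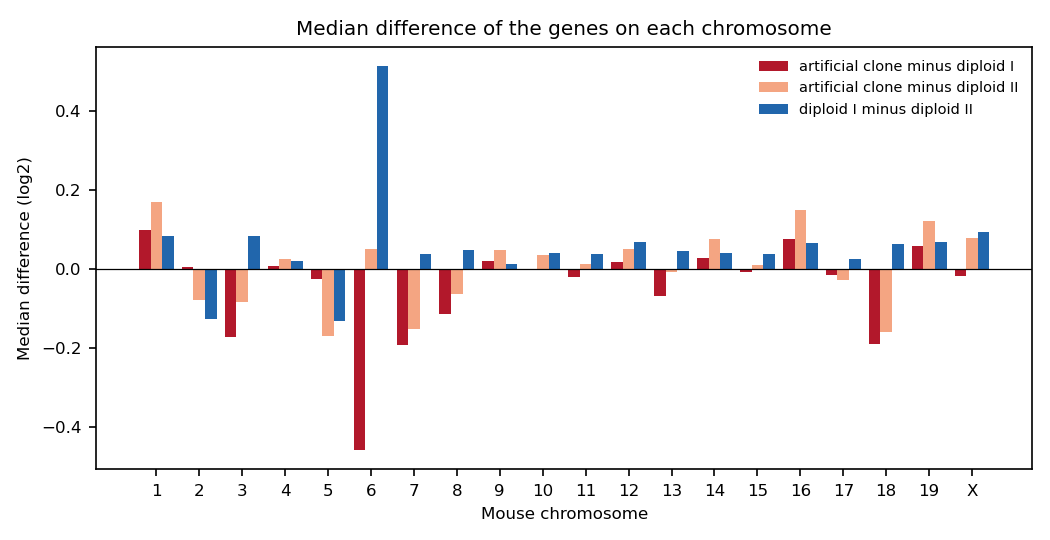
Median log2 difference of the described genes on each mouse chromosome, with bars for the clone minus diploid I, the clone minus diploid II and diploid I minus diploid II. Chromosome 6 stands out in the bars that involve diploid I, at -0.46 and 0.51.

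Runs of neighbouring genes differed together. A running median of the log2 difference was taken over 15 genes in chromosome order. A run was kept where this median reached 0.6 in either direction at 10 or more genes in a row. Among the 3 pairs of arrays there were 17 such runs, which held 296 genes, or 3.28% of those placed. They contained 1 of the 113 genes higher in the clone and 19 of the 102 genes lower. On chromosome 4, all 16 genes from Dmac1 to Dennd4c were lower in the clone than in diploid II, with a median of -1.18, and 10 of them were 2-fold below both diploid arrays. These 10 were Zdhhc21, Ttc39b, Snapc3, Psip1, Ccdc171, Bnc2, Rraga, Haus6, Plin2 and Dennd4c, so Haus6 and Plin2, named above by their functions, are neighbours. The mean level of the 16 genes was 7.98 in the clone, 9.43 in diploid I and 9.07 in diploid II, and on the remaining arrays 7.26 and 7.47 in tetraploid I and II and 7.18 in diploid III. In mean level the diploid pair therefore stood above all 4 other arrays, and the clone lay between the diploid pair and the remaining arrays. Against diploid I the run reached from Tle1 to Mllt3, 20 genes with a median of -1.11.

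Genes that follow Mllt3 in order on chromosome 4 include the cell cycle inhibitor genes Cdkn2a and Cdkn2b and the methylthioadenosine phosphorylase gene Mtap, none of which reached 6 on the 3 arrays. Cdkn2a was at 3.97 in the clone, against 3.97 in diploid I and 3.92 in diploid II, and Mtap at 3.70 in the clone, against 3.75 and 3.90 in diploid I and II. In tetraploid I Cdkn2a was at 7.98, Cdkn2b at 8.61 and Mtap at 8.21. Tetraploid II was as low as the clone, at 3.84, 4.32 and 3.73 for these genes, and diploid III had Cdkn2a at 4.49, Cdkn2b at 6.26 and Mtap at 6.34. All 3 genes were thus at the lower end of the scale in the clone, both chosen diploid cultures and tetraploid II. These 3 genes were picked after their values were seen, and the state of the locus was not measured.

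A longer run on chromosome 2, from Gm14165 to Pcif1, set diploid II apart. Of its 97 genes 93 were lower in the clone than in diploid II, with a median of -1.0, and the mean levels were 8.01 in the clone, 7.87 in diploid I and 8.96 in diploid II. Tetraploid I and II and diploid III had means of 7.89, 7.94 and 7.84, so diploid II was the array that differed. On chromosome 4, 29 of the 32 genes from Slc25a33 to Mib2 were higher in the clone than in diploid I, with a median of 0.70. The means of the 32 genes were 8.15 in the clone, 7.49 in diploid I and 7.71 in diploid II. On chromosome 16 all 10 genes from Ifnar1, an interferon receptor gene, to Mrps6 were lower in the clone than in diploid II, with a median of -0.75 and means of 7.85 in the clone, 8.77 in diploid I and 8.70 in diploid II. Another run, on chromosome 13, held 28 genes from H2bc14 to H4c2, most of them replication-dependent histone genes. Of these 28 genes, 25 were lower in the clone than in diploid II, with a median of -0.90. Near-identical copies of the histone genes make single values uncertain.

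**Figure D5:**
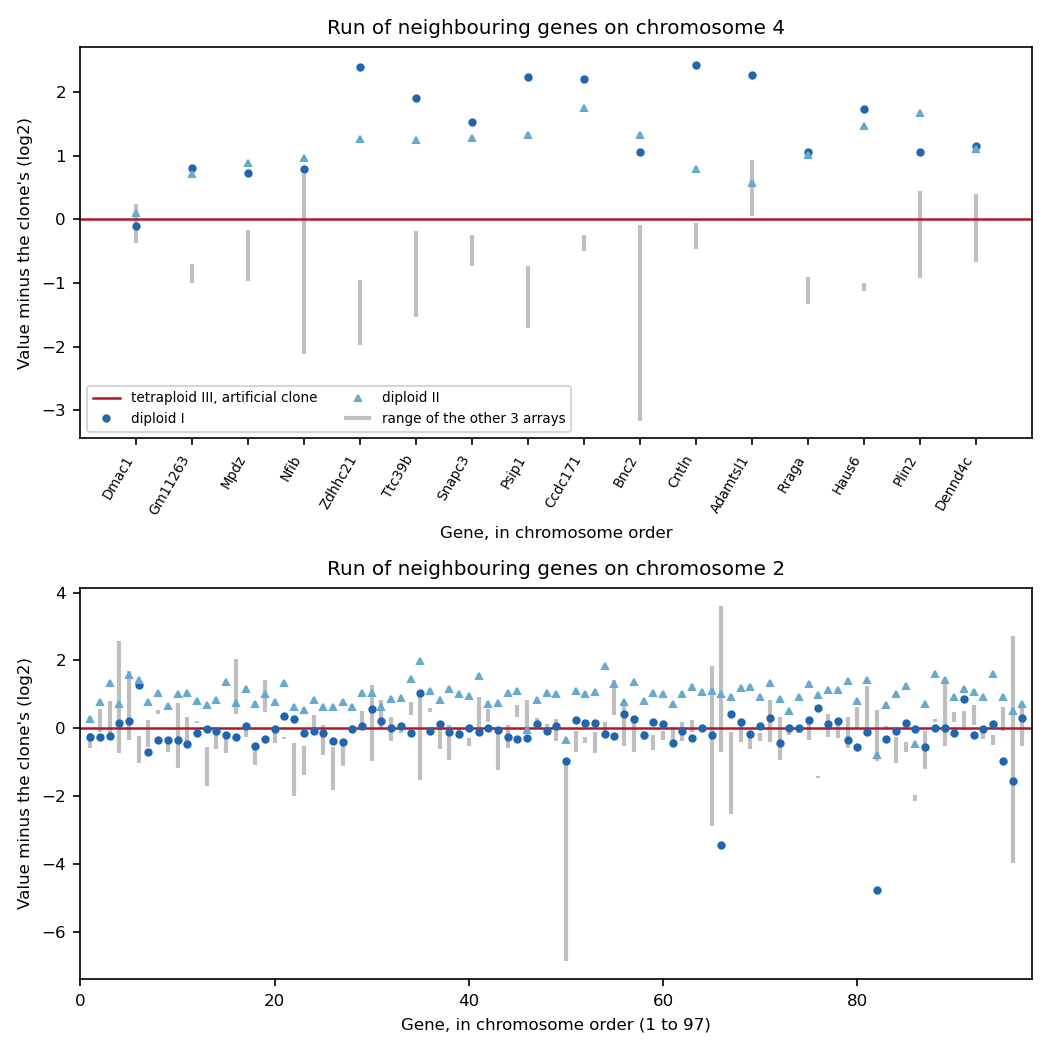
Log2 values of the genes in a run on chromosome 4 (top, 16 genes) and on chromosome 2 (bottom, 97 genes), each minus the clone's value, which is the red line at 0, in chromosome order. Circles are diploid I, triangles diploid II and grey bars the range of the other 3 arrays. Both diploid arrays lie above the line on chromosome 4, apart from Dmac1 in diploid I, and diploid II alone lies above it along most of chromosome 2.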

How the data were processed

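Biotin-labelled total RNA of 6 cultures was measured on Affymetrix arrays, 1 per sample, per the labels. The deposited table holds log2 expression per probe set, and the submitters' processing notes name RMA, which corrects background, normalises across arrays and summarises probes, and Partek, without versions. The genome build is not given in the sources used here. The signed fold of the authors' deposited comparison table was used to check scale and direction, and its log2 equalled the difference of group means to within 7.87e-05. That table also has 6 per-sample columns whose names match no label, and these were not used.

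Of 35399 probe sets 25917 had a symbol. Of 22349 symbols 19017 were current in RefSeq GRCm38.p6, 2382 matched as a synonym and 950 were kept. Where a gene had several probe sets (1988 genes), the one of highest 6-array mean was kept. The genes were those with a log2 value of 6 or more on at least 1 of the 3 arrays, and a difference was counted when the clone lay 2-fold beyond the nearer diploid array. No test was made. The number of arrays limits the precision.

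The comparison, the 41 gene lists (1472 of 1485 genes measured) and the naming rule were chosen with earlier results of these data known. Named genes were H19, Igf2, the 15 genes per direction with the largest gap, up to 4 per list past the 2-fold rule, and Xist with 4 Y-linked genes. Of the lists, 1 is not reported here. The Y-linked genes were under 6 on the 3 arrays. Alternatives were other scalings, probe set rules, minimums, fold thresholds and sets of diploid arrays. The counting was checked on simulated data. Python 3.11.15, pandas 2.3.3, numpy 2.4.6 and matplotlib 3.10.9 were used.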

Additional observations from a re-analysis of the deposited data

How the results depend on the processing

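The number of genes higher in the clone was 113 and of those lower 102. Both counts were within 1.5 times of these after quantile normalisation (115 and 103), after scaling to a common interquartile range (101 and 112), with probe sets averaged per gene (109 and 100), with all probe sets counted singly (137 and 110), with a minimum of 5 (126 and 105) or 7 (83 and 81), with a mean of 6 or more over the 6 arrays (83 and 72) and with no minimum (130 and 105). Leaving out the genes in runs of neighbours, added after seeing the data, gave 112 and 83. With 1 diploid array left out the higher count ran from 224 to 313 and the lower count from 253 to 365. The counts were 66 and 25 with all 3 diploid arrays, 199 and 205 at a 2-fold distance from the mean of the diploid arrays, 281 and 294 at 1.5-fold and 32 and 18 at 4-fold. The cause of the change with all 3 diploid arrays was not tested, while the other changes follow from a looser or stricter rule. H19 kept its direction in every alternative run for it, with log2 differences from the diploid mean of -4.60 to -6.71. The difference of Ptgs2 turned to 0.12 with all 3 diploid arrays, where 45 of the 73 named genes past the 2-fold rule moved by more than the SD of the 2 diploid arrays, 27 did not and 1 turned. Of 33 list medians, 9 turned sign without diploid I, 3 without diploid II, 4 with all 3 diploid arrays, 5 with the common interquartile range, 5 with no minimum, 2 without the runs and 1 after quantile normalisation. The largest shift of a list median with no minimum was 0.66, in the collagen list. Of 20 chromosome medians, 2 moved by more than the SD of the 2 diploid arrays without diploid I, 2 without diploid II and 0 after quantile normalisation. No paired analysis was possible because the clone carries repeat number III and the diploid cultures I and II, so that they share no number, and the counts come from no test. Each side rests on 1 or 2 arrays, so no difference here has a replicate check on the side of the clone.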
